A study of Mus musculus with 60 samples.

Results

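Bacteroides and Parabacteroides are the features described here: every row of the deposited 16S feature table whose lineage names one of these genera, whatever its abundance. The rule used no measured share and took 313 features, 237 of Bacteroides and 76 of Parabacteroides, of 8574 in the table and of 7922 assigned to bacteria or archaea. Together they held 9.14% of all prokaryote counts. A feature is one distinct amplicon sequence. Each is named below by its genus initial and its rank of mean share over the 60 libraries, so B1 is the most abundant Bacteroides feature and P1 the most abundant Parabacteroides feature.

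Both genera are strictly anaerobic, bile-tolerant Gram-negative rods of the order Bacteroidales and are known as major residents of the mammalian large intestine. They break down dietary and host polysaccharides through outer-membrane binding proteins and secreted enzymes encoded in polysaccharide utilization loci, and they release acetate, propionate and succinate. Some of the named species were first isolated from mice (Bacteroides acidifaciens, Bacteroides caecimuris), while others, such as Bacteroides vulgatus, Bacteroides uniformis, Bacteroides fragilis and Parabacteroides distasonis, are best known from the human gut.

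The libraries came from male mice that were dosed daily by oral gavage with nanoparticles of polyethylene terephthalate (PET), a polyester, for 28 days (0.5 mg in a volume of 0.1 ml each day), or from mice not exposed (control). Stool after 1 week, and stool, colon tissue, lung tissue and oral swabs at day 28, each gave 6 PET and 6 control libraries. The labels do not mention a vehicle gavage for the control arm, and do not link libraries to individual animals. All libraries were therefore treated as independent samples, and p-values measure the spread between them. The design gives 12 mice for the 60 libraries, so libraries of different times or sites can come from the same animal. Tests over time and between sites leave this dependence out. Colon and lung were extracted with a blood and tissue kit, stool and oral swabs with a soil kit, so kit and site cannot be told apart when colon or lung is set against stool. Library totals ran from 10543 to 1083575 counts. The shallowest libraries were in lung (10543 to 326834 counts), and 1 stool library of week 1 held 16521. For 4 libraries the label number belongs to a later run of numbers than for the other 56: the sixth PET and the sixth control stool library of day 28, and lung control libraries 5 and 6. The labels do not say what the number stands for, and these 4 are called the late-numbered libraries below. The main results that rest on them are given with and without them.

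The 313 features carried 45 species labels. Of these, 31 were species names and covered 159 features. Another 51 features had a label such as "uncultured Bacteroidales" or "metagenome", and the rest had no species name. Bacteroides acidifaciens had 39 features, Parabacteroides distasonis 24 and Bacteroides vulgatus 9. Most members were rare: 221 of the 313 (70.6%) were detected in a single library, 38 were detected in 10 libraries or more, and 196 had a count in at least 1 of the 24 stool libraries. One week 1 PET stool library, the deepest of the series with 1083575 counts, alone held 52 of the single-library features. Classifier confidence ran from 0.701 to 1 with a median of 0.996, and 237 members had at least 0.9. B1 had a confidence of 0.839, below the median of the members.

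The genera made up a small share of colon and oral swabs, a widely varying share of lung, and a larger share of stool than of colon or oral swabs. Relative to its mean, Bacteroides varied least in stool, while Parabacteroides varied widely there too. Bacteroides held 1.52% ± 1.65 of prokaryote counts in colon, 10.6% ± 13.2 in lung and 1.1% ± 1.90 in oral swabs, against 10.4% ± 3.57 in day 28 stool (SD, n = 12 each). In lung the lowest, median and highest library stood at 1.36%, 5.57% and 47.1%, and without the 2 late-numbered lung control libraries the mean was 5.64% ± 4.39 (n = 10). Parabacteroides held 0.244% ± 0.368 in colon, 1.0% ± 1.42 in lung and 0.128% ± 0.132 in oral swabs, against 2.17% ± 1.87 in day 28 stool. Without the same 2 libraries the lung mean of Parabacteroides was 0.639% ± 0.503 (n = 10). One control stool library of day 28 had no Parabacteroides count, which allows a share of up to 0.000673%.

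**Figure D1:**
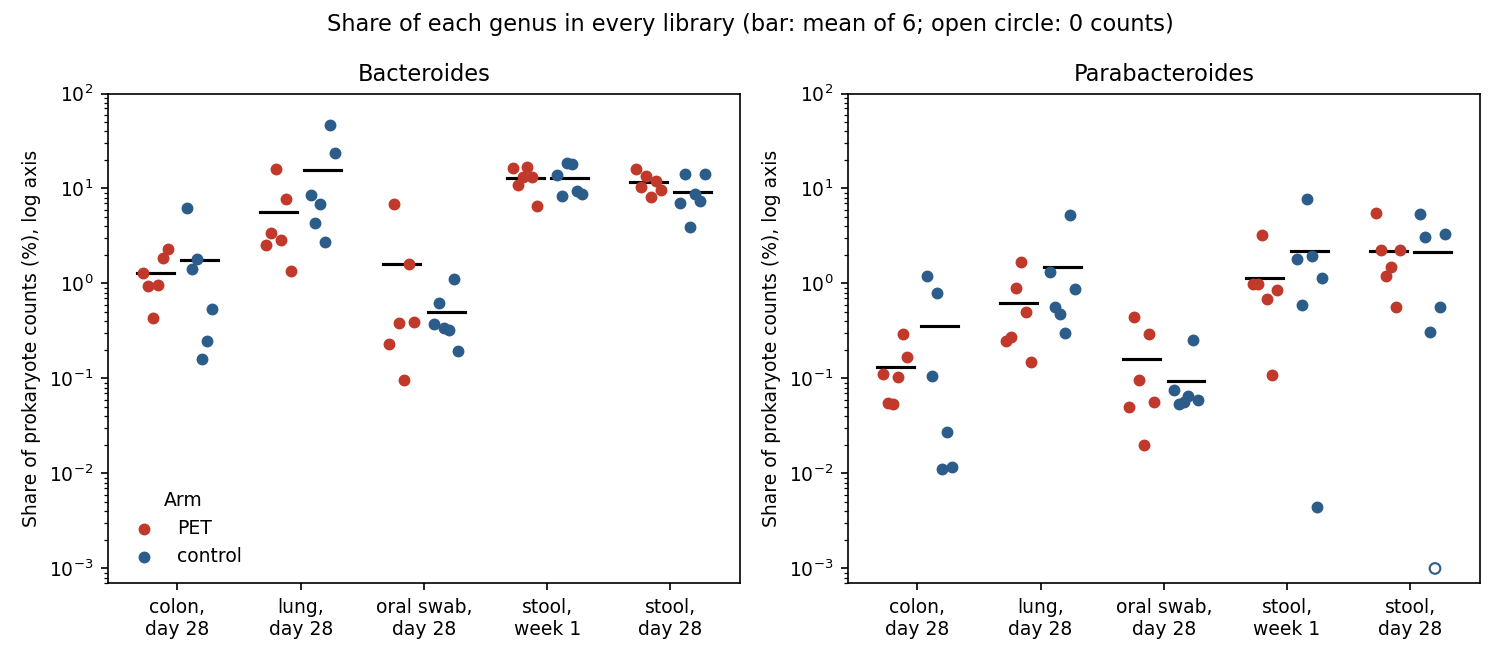
Share of prokaryote counts (percent, log axis) held by Bacteroides and by Parabacteroides in each of the 60 libraries, by sample type and arm; each point is 1 library, each bar the mean of 6 libraries and the open circle a library with 0 counts. Stool points lie close together for Bacteroides, while lung spreads from 1.36% to 47.1%.

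Stool was built from few features. Only 7 members were detected in at least 12 of the 24 stool libraries. They were B1, B5 and B6, all named Bacteroides acidifaciens, a mouse gut species known for inducing mucosal IgA; B4, named Bacteroides caecimuris, a species described from mouse caecum; B2, a Bacteroides feature with no species name; P1, labelled as an uncultured member of Bacteroidales; and P2, a Parabacteroides feature with no species name. B1, B2, B4, B5 and B6 were detected in all 24 stool libraries, P1 in 23 and P2 in 16. These 7 stool features held 95% ± 8.94 of the members' counts in stool. The effective number of member features in a stool library (the inverse of the summed squared shares among members) was 2.86 ± 0.752.

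B1 was the largest stool member by far. Its share ran from 4.52% over a median of 8.47% to 13.1% in week 1 PET stool, against 5.30%, 7.85% and 12.8% in week 1 control stool. At day 28 it ran from 3.35% over 5.81% to 9.83% in PET stool, against 2.33%, 5.0% and 9.74% in control stool. The arms overlapped almost fully at both times. B1 led the members in 22 of the 24 stool libraries. The exceptions were a day 28 control library led by P1 and the fifth PET library of day 28, led by B13.

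The other 6 stool features were smaller. Over the 24 stool libraries B2 averaged 1.58% ± 1.33, P1 1.31% ± 1.13 and B4 1.0% ± 0.691 (SD). B5 averaged 0.717% ± 0.537, B6 0.474% ± 0.348 and P2 0.543% ± 1.10. P2 was patchy: in week 1 its highest PET library held 0.744% against 4.70% in the highest control library, and at day 28 it was at 0 in 4 of 6 PET and 2 of 6 control libraries.

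In species terms, stool members were mostly Bacteroides acidifaciens. This label took 63.5% ± 15 of member counts in stool, and Bacteroides features with no species name took 15.8% ± 10.2. The Parabacteroides label "uncultured Bacteroidales" took 9.29% ± 7.64, and Bacteroides caecimuris took 7.80% ± 5.63.

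**Figure D2:**
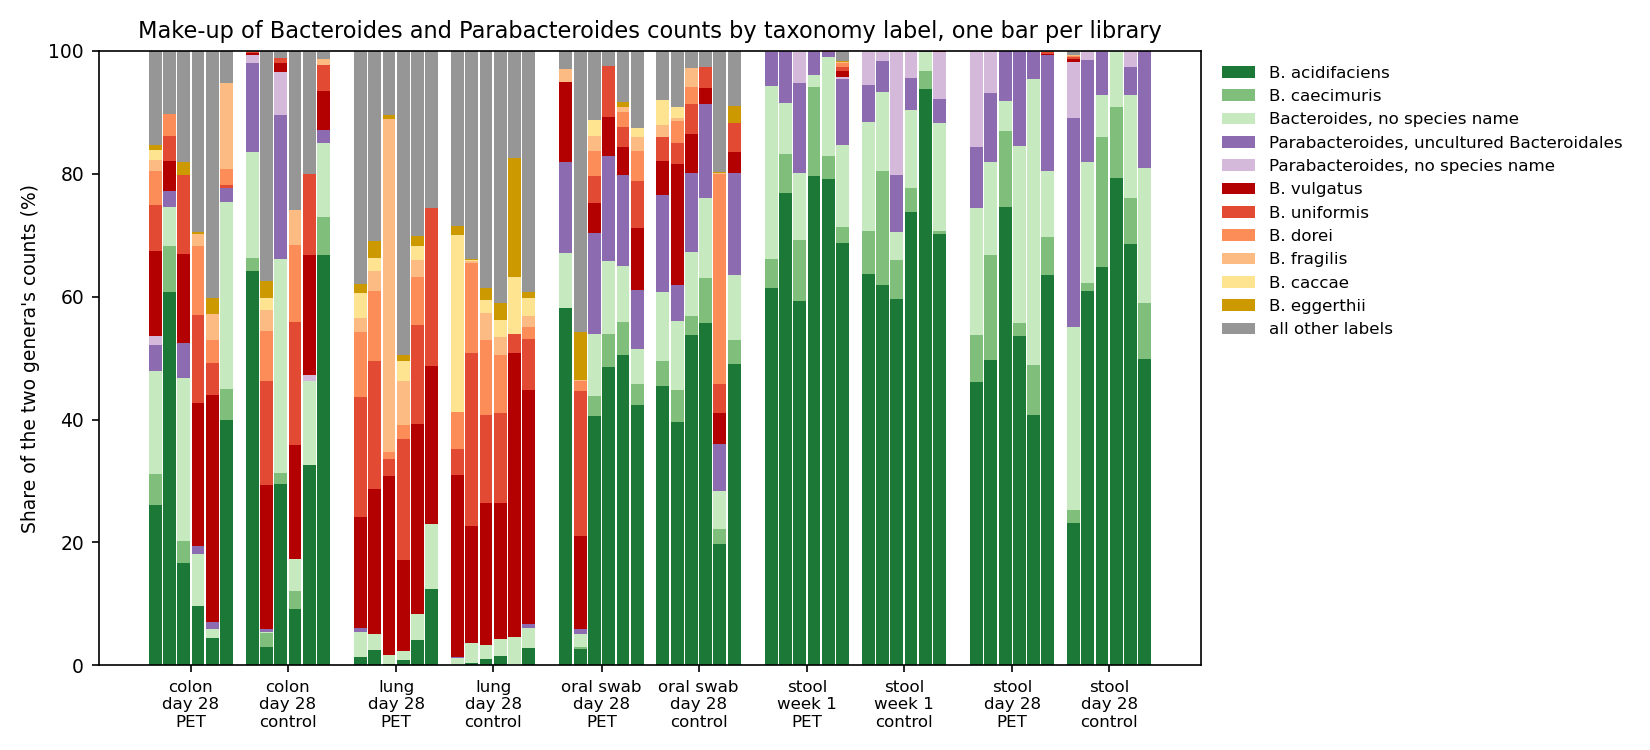
Makeup of the Bacteroides and Parabacteroides counts (percent of member counts) by taxonomy label, 1 stacked bar a library, grouped by sample type and arm. Bacteroides acidifaciens (dark green) has the largest mean share in stool and oral swabs, and Bacteroides vulgatus (dark red) in lung.

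The stool features were a small part of the lung members. The 7 stool features held 2.50% ± 3.43 of member counts in lung (range 0 to 12.5%), 45.6% ± 33.7 in colon (5.69% to 96%) and 65.8% ± 24 in oral swabs (4.16% to 88.8%), against 95% ± 8.94 in stool (58.3% to 100%). These features were chosen for their presence in stool, so the order of stool above the other sites is a description and was not tested. Within each site the arms overlapped: the share was 38.6% ± 27 in PET and 52.7% ± 40.6 in control colon, 3.89% ± 4.44 in PET and 1.11% ± 1.26 in control lung, and 62.5% ± 29.7 in PET and 69.1% ± 19.1 in control oral swabs (SD, n = 6 each). Without the second PET oral library, which held 4.16%, the PET oral mean was 74.2% ± 8.80 (n = 5).

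**Figure D3:**
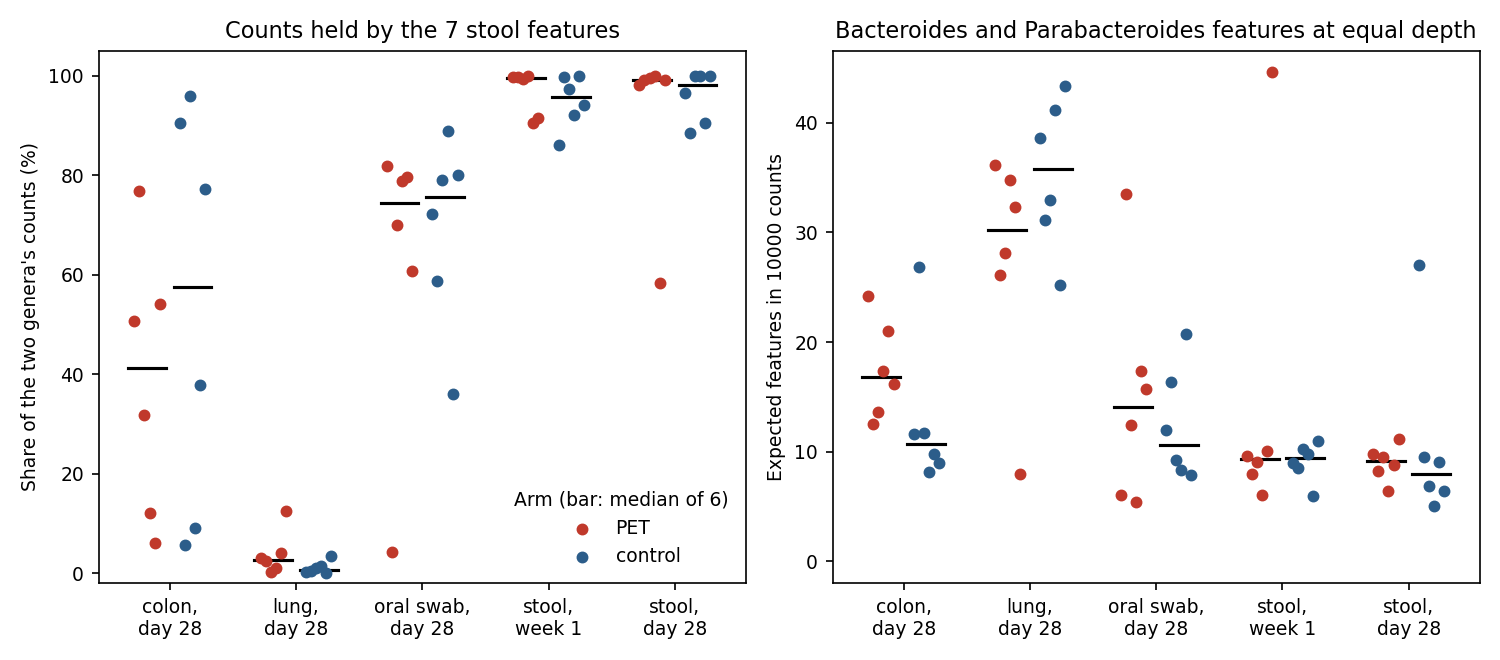
Left, percent of member counts held by the 7 stool features; right, member features expected in 10000 counts; each point is 1 library and each bar the median of 6, by sample type and arm. Lung libraries lie between 0 and 12.5%, while colon libraries run from 5.69% to 96%.

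B4, B5, B6 and P2 had no count in any of the 12 lung libraries. B4 had 0 of 1094149 lung counts, which allows a share of up to 0.000274%, against 48934 of 5160243 counts in day 28 stool, so it was at least 3459-fold lower in lung. The bounds were at least 2003-fold lower for B5, 1336-fold for B6 and 1290-fold for P2. P2 also had no count in oral swabs, where it was at least 4305-fold lower than in stool. These bounds rest on 3 counts over the pooled site and cover counting error only, since PCR products are not independent molecules. B1 was still found in 11 of 12 lung libraries, at 0.128% ± 0.196, and its pooled lung share was 0.00708 of that in stool (95% interval 0.00643 to 0.00777, counting error only).

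Lung members were mostly of named species other than the 2 described from mice. Of the 31 species names, 29 remain once Bacteroides acidifaciens and Bacteroides caecimuris are set aside. This grouping was made after values were seen and has no test. These 29 species held 89.3% ± 7.30 of member counts in lung (85.8% ± 8.98 in PET and 92.8% ± 2.61 in control lung), 44.5% ± 33.3 in colon and 32% ± 24.5 in oral swabs, against 0.304% ± 0.890 in stool. Some of their features were at 0 in stool, and others had a stool count. Among all 313 members, 196 had a stool count and 221 were detected in a single library, so absence from stool was common. Absence from stool of the features of these 29 species was not tested against other features, and no conclusion is drawn from it. In stool 62.3% of the counts of these species came from the sixth PET library of week 1 and 23.8% from the first control library of day 28.

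Bacteroides vulgatus, a common human gut species that degrades pectin and other plant polysaccharides, was detected in all 12 lung libraries. Its lung share ran from 0.387% over a median of 0.767% to 4.94% in PET libraries, against 0.672%, 2.30% and 24.2% in control libraries. The arms overlapped, and the control maximum came from the fifth control library, one of the late-numbered libraries, where B3 alone held 24.2% of prokaryote counts. Pooled over libraries, Bacteroides vulgatus was 454-fold higher in lung than in day 28 stool (interval 414 to 499, counting error only). The fold was 226 without the late-numbered libraries, and 1494 without the first control stool library of day 28, which held most of the stool counts. It took 26.6% ± 8.85 of lung member counts.

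Bacteroides uniformis, a human gut species able to use many glycans, had a lung share from 0.387% over 0.656% to 1.34% in PET libraries, against 0.415%, 1.21% and 2.03% in control libraries. It was present in all 12 lung libraries, the arms overlapped, and its pooled share was 148-fold that of day 28 stool. Without the first control stool library of day 28 the fold was 475, and without the late-numbered libraries 152. Parabacteroides distasonis, the species for which the genus was set up, ran from 0.0715% over 0.191% to 0.700% in PET lung, against 0.113%, 0.339% and 1.91% in control lung, again in all 12 libraries. Bacteroides fragilis, known for its capsular polysaccharides and as an opportunist outside the gut, was less even: 0% over 0.174% to 9.19% in PET lung, against 0%, 0.0525% and 0.436% in control lung. The PET maximum was the third PET library.

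Smaller lung species included Bacteroides dorei, a close relative of Bacteroides vulgatus, at 6.43% ± 5.21 of lung member counts. Bacteroides caccae, which can grow on mucin, took 4.78% ± 7.93, and Bacteroides stercoris, isolated from human faeces, took 4.14% ± 3.59. Bacteroides thetaiotaomicron, the model glycan degrader of the genus, was 308-fold higher in lung than in day 28 stool on pooled counts, and 167-fold without the late-numbered libraries. Its only day 28 stool library was the first control library, without which it was at least 3717-fold higher in lung. Parabacteroides goldsteinii was found in 4 libraries of the series, all lung, and Bacteroides finegoldii in 4, all control lung. Bacteroides xylanisolvens, a xylan degrader, had no stool count.

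The remaining names were Bacteroides cellulosilyticus, clarus, coprocola, coprophilus, eggerthii, faecis, fluxus, gallinaceum, intestinalis, massiliensis, nordii, ovatus, plebeius and salyersiae, and Parabacteroides faecis, gordonii, johnsonii and merdae. Bacteroides coprocola was found in 33 libraries and Parabacteroides merdae in 29, while Bacteroides fluxus, Bacteroides intestinalis and Parabacteroides faecis were each found in 1. No blank extraction library was analysed here.

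**Figure D4:**
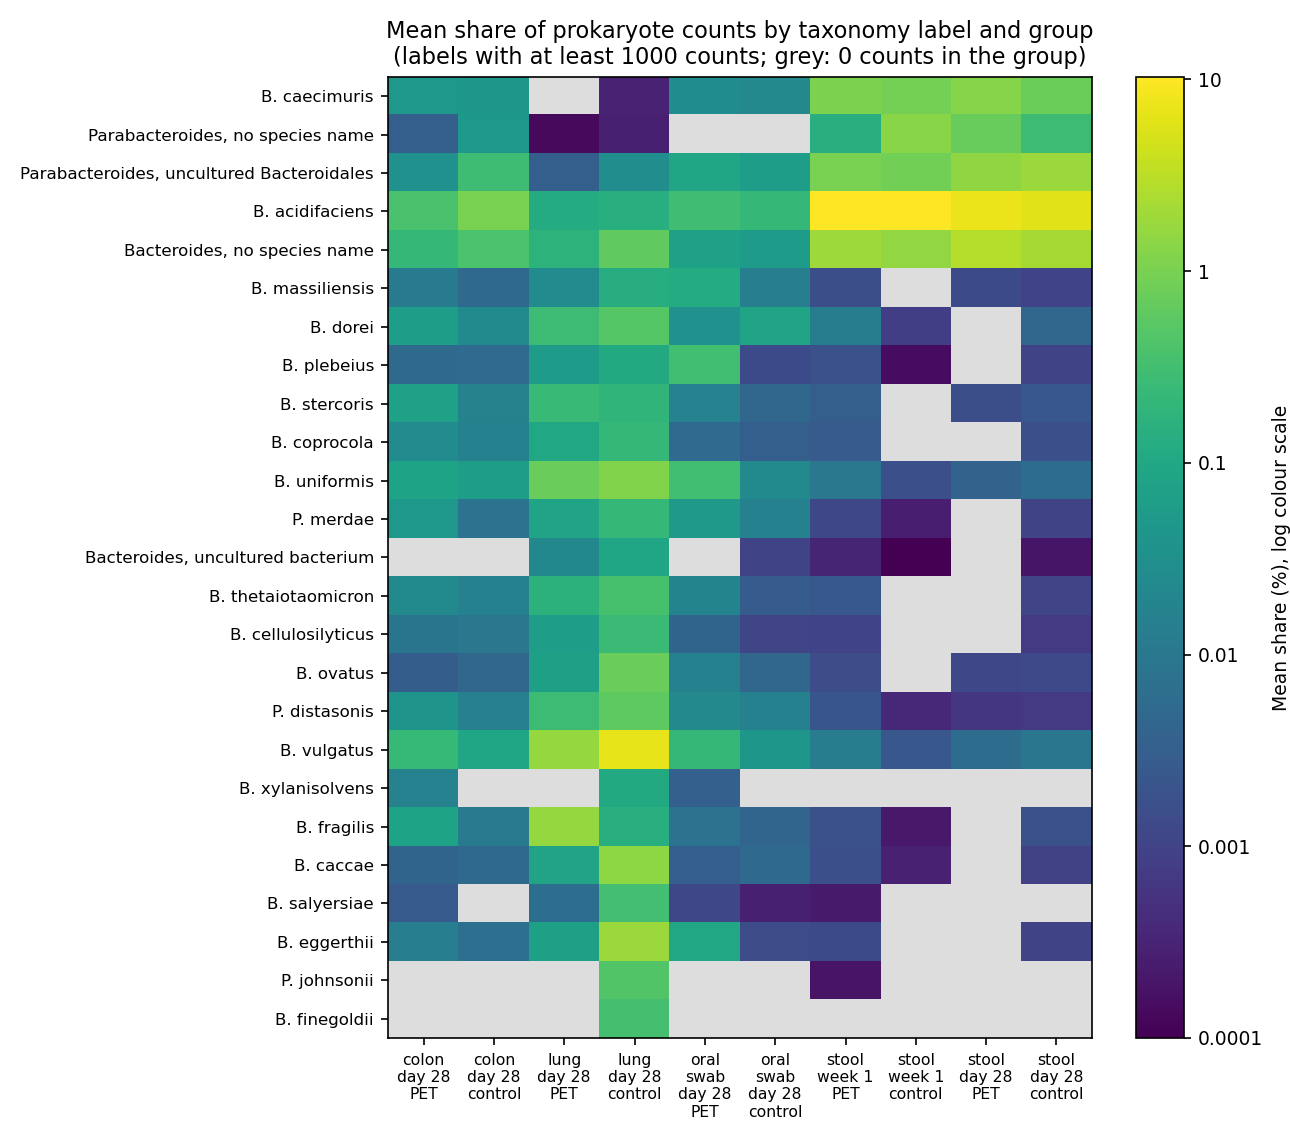
Mean share of prokaryote counts (percent, log colour scale) of each label with at least 1000 counts, in the 10 groups of 6 libraries; grey marks 0 counts in the group. Bacteroides acidifaciens and Bacteroides caecimuris are brightest in stool, and most of the other named species are brightest in lung.

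Lung libraries also differed from one another in which species led. B3, named Bacteroides vulgatus, led the members in 6 of 12 lung libraries, and 6 different features led the other 6. They were B7 (Bacteroides vulgatus), B8 (Bacteroides fragilis), B14, B34 and B43 (Bacteroides uniformis) and B17 (Bacteroides caccae). In lung an average of 35.4 ± 11.8 member features was detected per library, against 18 ± 21.4 in stool. With each library thinned to 10000 counts the means were 31.5 ± 9.31 in lung and 10.8 ± 8.29 in stool. The effective number was 11.7 ± 5.59 in lung, 7.6 ± 4.32 in colon and 5.67 ± 1.64 in oral swabs, against 2.86 ± 0.752 in stool.

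Colon tissue mixed both kinds. B1 led the members in 7 of 12 colon libraries, B3 in 3, B2 in 1 and B14 in 1. Bacteroides acidifaciens took 30.2% ± 23.4 of colon member counts, Bacteroides vulgatus 13.6% ± 11.4 and Bacteroides uniformis 8.31% ± 6.88. B1 ran from 0.0816% over 0.209% to 0.604% in PET colon, against 0.0156%, 0.176% and 4.41% in control colon. A single control library set that maximum.

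Both genera held a small mean share of the oral swab counts. B1 led in 10 of 12 oral libraries, with B14 leading the second PET library and B15, named Bacteroides dorei, the fifth control library. Bacteroides acidifaciens took 42.2% ± 16.0 of oral member counts and the Parabacteroides label "uncultured Bacteroidales" 12.3% ± 5.17. Pooled over libraries the 7 stool features held 26.8% of oral member counts, against a mean over libraries of 65.8%. The second PET library held 6.93% Bacteroides, including 1.66% B14 and 1.10% B3.

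Members detected in at least 3 libraries of a site numbered 45 in lung, 30 in oral swabs, 27 in colon and 23 in stool, the last over 24 libraries. Lung and stool shared 13, which is 28.9% of the lung and 56.5% of the stool members. Lung and oral swabs shared 26 (57.8% of lung, 86.7% of oral), and colon and lung shared 22 (81.5% of colon, 48.9% of lung). Of the 45 lung members, 15 (33.3%) reached 3 libraries in lung alone. The overlap over all features was not counted, so these shares describe the members and do not set them apart from other taxa.

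The B6 to B5 ratio varied little across stool libraries, and the P5 to P2 ratio did so only where P2 was abundant. The B6 to B5 count ratio was 0.664 ± 0.0501 over all 24 stool libraries (range 0.506 to 0.748), although B5 itself ran from 0.143% to 2.61%. P5 to P2, both Parabacteroides features with no species name, stood at 0.126 ± 0.0135 in the 8 stool libraries with at least 1000 P2 counts (0.104 to 0.141). Over all 16 stool libraries with a P2 count it was 0.085 ± 0.0611 (0 to 0.141). In the sixth PET library of week 1, P5 had 0 counts beside 160 of P2. Both ratios are descriptions across libraries, and the pairs were chosen after their values were seen. B9, a Bacteroides feature with no species name, was found in 11 libraries, 8 of stool and 3 of colon.

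**Figure D5:**
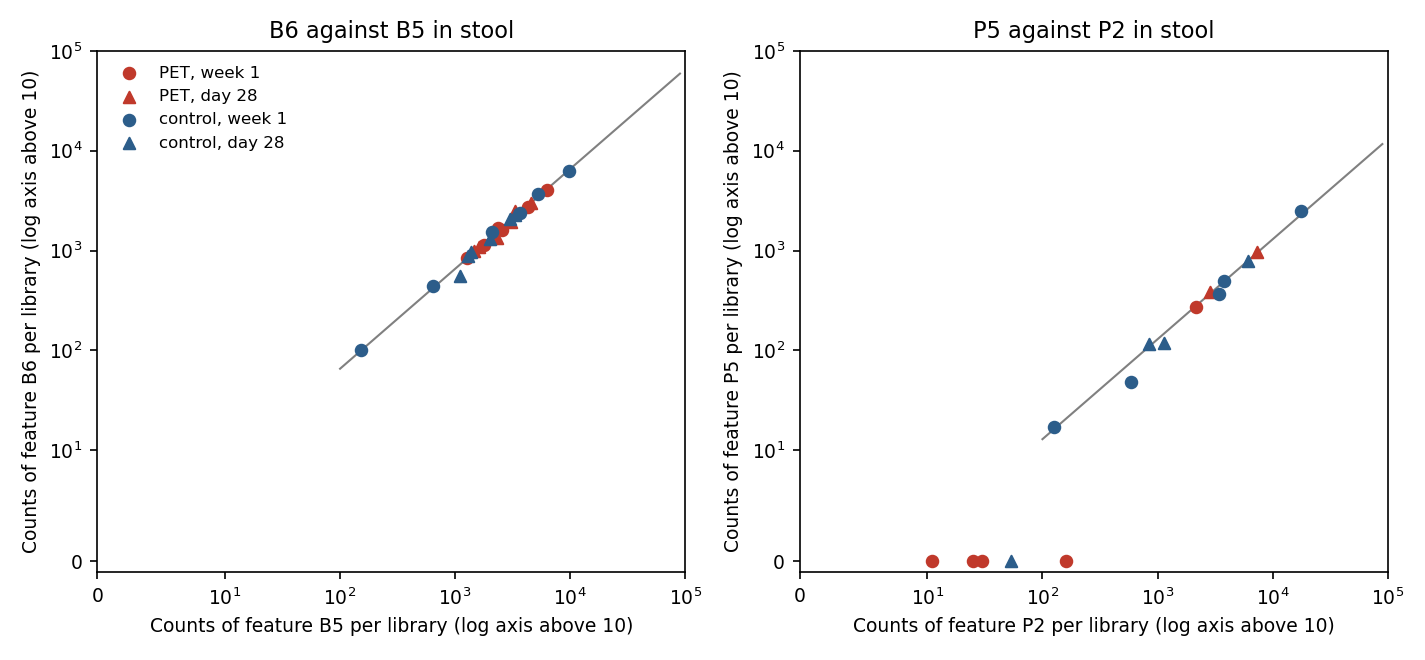
Counts of B6 against B5 and of P5 against P2 in stool libraries (log axes), 1 point a library; the line is the median ratio of libraries with at least 1000 counts of the feature on the x axis, and axes are linear below 10 counts. B6 follows B5 at a ratio between 0.506 and 0.748 in all 24 libraries.

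B13, chosen after its values were seen, is a Bacteroides feature with no species name that was found in 4 libraries, all from PET mice. It held 0.728% in the fifth PET stool library of week 1, 4.86% in the fifth PET stool library of day 28, 0.531% in the sixth PET colon library and 0.177% in the fifth PET lung library. The labels do not say whether these libraries share an animal, and no oral library held it.

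Exposure was then compared within each sample type with edgeR's quasi-likelihood test, fitted over all genera, features or species labels with Benjamini-Hochberg adjustment, and a threshold of 0.05. Neither genus passed at any site. In lung, Bacteroides ran from 1.36% over 3.12% to 16.1% in PET libraries, against 2.75%, 7.69% and 47.1% in control libraries. The arms overlapped, and the log2 change was -1.52 (SE 1.1, adjusted p = 0.818). Without the 2 late-numbered lung control libraries the control mean was 5.60% ± 2.58 (n = 4) against 15.5% ± 17.2 with them, and the log2 change was -0.20 (adjusted p = 0.974). The PET mean was 5.66% ± 5.55. Parabacteroides in lung averaged 0.623% ± 0.579 in PET and 1.47% ± 1.92 in control libraries (log2 -1.49, SE 1.23, adjusted p = 0.935). Without the same 2 libraries the control mean was 0.664% ± 0.446 (n = 4) and the log2 change -0.40 (edgeR adjusted p = 0.974).

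In colon, Bacteroides ran from 0.437% over 1.12% to 2.30% in PET libraries, against 0.161%, 0.982% and 6.30% in control libraries (log2 -0.55, SE 1.07, edgeR adjusted p = 0.902). Parabacteroides averaged 0.131% ± 0.0914 in PET and 0.357% ± 0.510 in control colon (log2 -1.41, SE 1.28, adjusted p = 0.634). The first control library held the 6.30%, and leaving out single libraries gave Bacteroides values between -0.70 and 0.28.

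In oral swabs Bacteroides averaged 1.61% ± 2.66 in PET and 0.498% ± 0.335 in control libraries (log2 0.56, SE 0.563, edgeR adjusted p = 0.981). Without the second PET library the PET mean was 0.540% ± 0.603 (n = 5) and the log2 change -0.09. Parabacteroides averaged 0.161% ± 0.172 in PET and 0.0947% ± 0.0798 in control swabs (log2 0.01, SE 0.484, adjusted p = 1.0).

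No stool difference passed the test. After 1 week Bacteroides averaged 12.9% ± 3.84 in PET and 12.9% ± 4.79 in control stool (log2 -0.19, SE 0.357, edgeR adjusted p = 0.836), and Parabacteroides 1.15% ± 1.08 and 2.22% ± 2.84 (log2 -1.26, SE 1.11, adjusted p = 0.762). At day 28 Bacteroides averaged 11.6% ± 2.83 in PET and 9.23% ± 4.08 in control stool (log2 0.32, SE 0.316, adjusted p = 0.809), and Parabacteroides 2.21% ± 1.73 and 2.13% ± 2.17 (log2 0.12, SE 1.17, adjusted p = 0.986). Over all genera tested the share called was 0.0% in both stool comparisons, lung and oral swabs and 15.8% in colon.

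No single member feature or species label passed the exposure test either. Of 313 features, 15 could be tested in week 1 stool, 9 in day 28 stool, 26 in colon, 44 in lung and 29 in oral swabs, and 0 were called in each. Over all features the share called was 2.35% in colon and 0.0% at the other sites. At an unadjusted p under 0.05 the counts were 0, 0, 0, 6 and 2, beside 58 of 728, 43 of 737, 39 of 468, 54 of 454 and 29 of 460 of all features tested. Of species labels, 11, 7, 19, 30 and 19 were tested in the same order and 0 called, against 7.42% of all labels in colon and 0.0% elsewhere, and 1, 0, 0, 6 and 2 had an unadjusted p under 0.05, beside 25, 15, 42, 45 and 18 of all labels tested. With no low count filter 1 member feature was called in week 1 stool, 1 in day 28 stool and 1 species label in lung, where TMMwsp scaling also called 1 label. The share called over all features or labels was not counted in these settings, so these calls do not set the members apart.

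The 6 lung features with an unadjusted p under 0.05 were split evenly, 3 lower and 3 higher in PET lung, and none passed the adjusted test. B23, named Bacteroides finegoldii, was at 0 in all 6 PET lung libraries and present in 4 of 6 control libraries (edgeR adjusted p = 0.137). B37, named Bacteroides xylanisolvens with a classifier confidence of 0.734, was present in 0 PET and 3 control lung libraries (adjusted p = 0.137). B10, named Bacteroides eggerthii, had a log2 change of -5.69 (adjusted p = 0.179), and its highest value, 7.65%, was in the fifth control library. On the other side P21, named Parabacteroides distasonis, was present in 3 PET and 0 control lung libraries (adjusted p = 0.137). B22 and B8, both named Bacteroides fragilis, had log2 changes of 6.09 (adjusted p = 0.179) and 4.80 (adjusted p = 0.279), and B8 had its highest value, 7.58%, in the third PET library. In oral swabs B28, named Bacteroides plebeius, a species known for enzymes that digest seaweed polysaccharides, had a log2 change of 6.65 (adjusted p = 0.753), with its highest value, 0.922%, in the second PET library. The median log2 change in lung was -0.80 over the 44 members tested and -0.19 over all features tested.

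Between week 1 and day 28, Bacteroides in stool had a log2 change of -0.11 in PET mice (edgeR adjusted p = 0.924) and -0.81 in control mice (SE 0.362, adjusted p = 0.262). The test of the difference between arms gave 0.70 (adjusted p = 0.505). Parabacteroides had log2 changes of 0.87 in PET (adjusted p = 0.746) and -0.58 in control mice (adjusted p = 0.879), with a difference of 1.45 (adjusted p = 0.774). Of 23 member features and 19 species labels tested, 0 were called in either arm or in the difference, against 0.0% of all genera, features and labels. At an unadjusted p under 0.05 there were 5 member features in PET, 5 in control and 6 in the difference, beside 148, 175 and 152 of all 964 features tested.

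Bacteroides dorei had the lowest unadjusted p of the labels tested over time in PET stool. It was detected in 5 of 6 PET libraries in week 1 and in 0 of 6 at day 28, and in 1 of 6 control libraries at each time (edgeR adjusted p = 0.111 in PET). Its highest week 1 share was 0.0393%.

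For sites against stool at day 28, both arms were pooled and the same tests run. Over all genera tested the median log2 change stood at 1.45 in colon, 6.07 in lung and 2.82 in oral swabs, so a genus near 0 lies below the median genus. The low count filter was applied over the sites together. A genus that passed it through a site other than stool had to be higher there, so these medians are no neutral background. Over all features tested the medians were -0.59, -4.73 and -1.53 in the same order. In oral swabs both genera were called lower, Bacteroides with a log2 change of -1.52 (edgeR adjusted p = 0.0335) and Parabacteroides with -2.10 (adjusted p = 0.0344). The background there was 11.2% of genera lower and 38.3% higher. Both calls were lost without the 4 late-numbered libraries (log2 -0.74 and -1.17). In colon neither was called (log2 -1.46, adjusted p = 0.0851 and log2 -2.13, adjusted p = 0.0637), with 3.51% of genera lower and 19.2% higher. In lung Bacteroides had a log2 change of -0.01 (adjusted p = 1.0) and Parabacteroides of -1.0 (adjusted p = 0.299), with 12.8% of genera lower and 58.1% higher.

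A two-sided permutation test on log2 shares, added after the data were seen, gave for colon Bacteroides a difference of -3.32 (adjusted p = 6e-05 over 6 tests, where 2e-05 is the smallest unadjusted p that the resamples can give) and for colon Parabacteroides -2.95 (adjusted p = 0.0504). For oral swabs it gave -4.30 (adjusted p = 6e-05) and -3.12 (adjusted p = 0.0325). In lung the differences were -0.66 (adjusted p = 0.2) and -0.25 (adjusted p = 0.929).

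At the feature level 69 of the 313 members passed the low count filter. A member that passed through the site where it is high had to differ, so the counts are a description of those 69. In lung 37 were called higher and 9 lower, against 28.6% and 49.4% of all features tested. In colon 15 were called higher and 5 lower (8.33% and 16.7% of all features), and in oral swabs 30 higher and 6 lower (19.9% and 33.3%). With no low count filter the colon calls numbered 2 and not 20, and the share over all features was not counted in that setting. The median log2 change of the members tested was 4.36 in lung, 2.66 in colon and 3.71 in oral swabs, beside -4.73, -0.59 and -1.53 over all features.

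The 7 stool features had negative log2 changes against stool, or no count, in colon, lung and oral swabs. They were chosen for their presence in stool, so these values are a description and carry no test. In lung the log2 change was -9.59 for B1, -11.63 for B2 and -10.88 for P1, while B4, B5, B6 and P2 were at 0. In colon it was -3.18 for B1, -3.44 for B2 and -4.07 for B4. B5 stood at -3.01, B6 at -3.09, P1 at -3.86 and P2 at -8.17 in colon. In oral swabs the log2 change was -3.0 for B1, -3.43 for B2 and -3.50 for B4. B5 stood at -2.33, B6 at -2.81 and P1 at -2.64 in oral swabs, and P2 was at 0. B9 and P5, with no species name, were at 0 in lung and in oral swabs.

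The members highest in lung relative to stool were B12 (Bacteroides caccae, log2 9.24, edgeR adjusted p = 6.33e-05), B25 (no species name, 7.92), P9 (Parabacteroides goldsteinii, 7.77), B22 (Bacteroides fragilis, 7.20) and B8 (Bacteroides fragilis, 7.10). B3 rose by 5.94 (adjusted p = 0.00112). In colon they were B22 (7.68, adjusted p = 0.00384), B53 (no species name, 6.58), B14 (6.29), B12 (6.15) and P19 (Parabacteroides distasonis, 5.82). In oral swabs they were B45 (Bacteroides massiliensis, 10.53), B14 (9.36, adjusted p = 6.94e-05), P10 (Parabacteroides distasonis, 9.25), B52 (Bacteroides plebeius, 9.03) and P3 (Parabacteroides merdae, 8.97). Several of these were at 0 in day 28 stool, so their fitted values depend on the prior count and are no bounds. Such members passed the low count filter only through other sites and were picked as the largest changes. Their adjusted p-values are therefore a description and no test. B12, for instance, was at least 8676-fold higher in lung on pooled counts. The fifth lung control library, where B12 held 4.86% of counts, supplied most of them: the bound was 760-fold without it and 513-fold without all late-numbered libraries.

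By species label, 33 were tested. In lung 25 were called higher and 5 lower (58.0% and 20.1% of all labels). The calls were 15 and 2 in colon (18.4% and 3.48%) and 17 and 4 in oral swabs (32.9% and 12.2%). A label that passed the low count filter through the site where it is high had to differ, so these counts describe those 33. The labels named next were picked with their values known. Their adjusted p-values are likewise a description and no test. Bacteroides vulgatus rose at every site, with log2 changes of 4.43 in colon, 6.91 in lung and 4.69 in oral swabs (edgeR adjusted p = 0.00445, 8.78e-06 and 0.0012). Bacteroides uniformis rose by 4.47, 5.90 and 5.07. Bacteroides acidifaciens fell by 7.53 in lung (adjusted p = 5.05e-08) and by 2.44 in oral swabs (adjusted p = 0.0311), and had -2.07 in colon (adjusted p = 0.134). Bacteroides caecimuris fell by 12.68 in lung and 3.08 in oral swabs and had -2.95 in colon (adjusted p = 0.0815). Without the 4 late-numbered libraries, 18, 45 and 36 features and 16, 28 and 21 species labels were called in colon, lung and oral swabs, against 20, 46 and 36 features and 17, 30 and 21 labels with them. Both directions are summed in these counts of members. The share called over all features or labels without those libraries was not counted.

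Among the 26 other genera of Bacteroidales, the order that holds both genera, 18 could be tested for exposure in colon and 3 were called, all higher in PET: Butyricimonas, a butyrate producer (log2 6.21, edgeR adjusted p = 0.0435), Porphyromonas (8.61, adjusted p = 0.0034) and an unclassified genus of the F082 group (10.46, adjusted p = 0.0034). Over all genera tested in colon 15.8% were called in either direction and 13.7% were called higher in PET. These 3 calls therefore do not set the order apart from other genera. With the stricter low count filter 1 other Bacteroidales genus was called. None of the 12, 10, 20 and 16 tested in week 1 stool, day 28 stool, lung and oral swabs was called by edgeR, and 0, 0, 1 and 2 had an unadjusted p under 0.05. Against day 28 stool, 23 were tested, and in lung 14 were called higher and 9 lower (58.1% and 12.8% of all genera). The calls were 7 and 4 in colon (19.2% and 3.51%) and 7 and 8 in oral swabs (38.3% and 11.2%). A genus that passed the low count filter through the site where it is high had to differ.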

How the data were processed

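Amplicons of 16S regions V3 to V4 (2 reads of 300 bases a pair) were measured in 60 libraries. The deposited table holds the authors' counts per feature, not normalized. The deposited taxonomy lists a lineage per feature, with the classifier's confidence as a fraction from 0 to 1. Bowtie2, cutadapt and GRCm39 are named, without versions, per the submitters' processing notes. Denoiser, classifier and taxonomy database: not given in the sources used here. Sequences of the features were not used here. Shares are percentages of the counts of features assigned to bacteria or archaea. Features with no taxonomy line (619) were left out.

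Counts were tested with edgeR 4.0.16 (R 4.3.3; quasi-likelihood F test, TMM, Benjamini-Hochberg, threshold 0.05) over all genera, features or species labels with at least 10 counts in total and a count in 3 libraries. Tests were checked on simulated data. Recovery of seeded changes was required only at a fixed low spread, so the check does not give the power at the spread observed here. Alternatives used DESeq2 1.42.0, limma 3.58.1 on centred log ratios, other scalings and filters, and libraries left out. Members and lists were chosen with earlier results of these data known. The features named are the 10 with the highest mean share, the leading 3 per sample type, up to 5 called highest and 5 lowest per comparison, and every named species. Features outside this rule are named where they lead a library, pair with another or stand out by their values.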

Additional observations from a re-analysis of the deposited data

Results flagged for a closer look

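In groups of 6 libraries, the highest or lowest value was compared with its nearest neighbour by Dixon's ratio. Of 82 groups tested 27 stood out, every one by its highest library, while chance flags about 1 in 20 groups. Shares are skewed, and the cause was not tested.

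For Parabacteroides the libraries were stool libraries 3 of week 1 in the PET (3.25%) and the control arm (7.82%), the first PET stool library of day 28 (5.49%), the fifth control lung library (5.32%) and the fifth control oral library (0.257%). For Bacteroides they were the second PET oral library (6.93%) and the first control colon library (6.30%).

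Several features stood out in the same library. The fifth PET oral library was highest in B1 (0.740%), B2 (0.169%), B4 (0.102%), B5 (0.114%) and P1 (0.281%), and the second PET oral library in B3 (1.10%) and B14 (1.66%). The first control colon library was highest in B1 (4.41%) and B4 (0.153%), and the second in B3 (0.187%) and B14 (0.148%).

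In lung the values were 1.76% B3 in the fifth PET library, 3.58% B7 in the third PET library, 24.2% B3 in the fifth control library, and 4.94% B7 and 0.671% B1 in the sixth control library. In stool they were 4.91% B2 in the first PET library of week 1, and for P2 0.744% in the third PET library of week 1, 4.70% in the third control library of week 1 and 1.0% in the first control library of day 28.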

How the results depend on the processing

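No paired analysis was possible because the labels link no library to an individual animal and the replicate numbers were assigned in accession order within each group, so they link no libraries. Of 769 alternatives computed for the results given here, 672 were classed as unchanged. For a tested change this meant the same direction and side of the threshold. For a mean share it meant a move smaller than the SD between libraries. For a count of calls it meant a number within a set fold of the main one. For the exposure comparisons of the 2 genera, 213 alternatives gave 0 calls, with a lowest adjusted p of 0.328. Where a value below changed, the cause was not tested.

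With TMMwsp scaling, colon against stool passed for Bacteroides (-2.35) and Parabacteroides (-2.86), and 1 species label was called for exposure in lung. With library totals these colon values were -2.78 and -3.32 and also passed, and PET against control in week 1 stool turned to 0.003 for Bacteroides. With no low count filter, colon against stool (-2.31 and -2.86) and lung against stool (-2.10 and -2.83) passed, oral Parabacteroides (-2.30) no longer did, day 28 stool Parabacteroides under PET was -0.003 and colon Bacteroides under PET 0.18. That setting called 1 member feature for exposure in each of week 1 and day 28 stool, 1 species label in lung, and 2 member features in colon against stool. In the alternative settings the share called over all features or labels was not counted. With the stricter filter colon against stool passed (-1.69 and -2.39), and 1 other Bacteroidales genus was called for exposure in colon.

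Over all features of the table, lung Bacteroides against stool was 1.0, and the oral calls were lost (-0.75 and -1.19). They were also lost without the 4 late-numbered libraries (-0.74 and -1.17) and at a confidence of at least 0.9 (-0.74 and -2.09). At that confidence, which leaves out B1, stool Bacteroides averaged 4.14% in PET and 4.25% in control stool of week 1 and 5.26% and 3.78% at day 28. Bacteroides was then 0.093 for PET in colon, 0.55 for day 28 against week 1 in PET and 0.61 for lung against stool, and lung Parabacteroides passed at -2.01. Differences of log2 shares, tested by exact permutation, were 0.021 and 0.21 for PET in week 1 stool, 0.42 and 2.44 in day 28 stool, 0.44 and 0.36 in colon, -1.25 and -0.995 in lung, and 0.45 and 0.28 in oral swabs, with a lowest adjusted p of 0.744. The permutation test of colon Bacteroides against stool passed (-3.32). Pooled counts put the stool features at 26.8% of oral member counts.

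Leaving out single libraries gave these ranges for Bacteroides and then Parabacteroides. For PET against control they were -0.50 to 0.13 and -2.03 to 0.19 in week 1 stool, 0.17 to 0.49 and -0.38 to 0.54 in day 28 stool, -0.70 to 0.28 and -1.66 to -0.48 in colon, -2.67 to -0.28 and -2.45 to -0.22 in lung, and -0.085 to 1.39 and -0.13 to 0.66 in oral swabs. For day 28 against week 1 they were -0.26 to 0.088 and 0.36 to 1.64 in PET, and -1.06 to -0.54 and -1.18 to 0.72 in control. The difference between arms ran from 0.44 to 0.96 and from 0.24 to 2.21. Against stool they were -1.78 to -1.28 and -2.48 to -1.26 in colon, -1.20 to 1.12 and -2.23 to 0.061 in lung, and -1.59 to -0.88 and -2.23 to -1.15 in oral swabs, where 10 and 5 of 24 omissions lost the call. Species labels called over time in PET numbered 0 to 1.

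Lung libraries were the shallowest, so a member at 0 there is bounded less tightly than in stool. Kit and site cannot be told apart for colon and lung, and intervals cover counting error only. The pooled folds and the counts of features and labels called without single libraries or the late-numbered libraries, and the permutation test of sites, were added after the data were seen.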
